A study of Mus musculus with 2 samples.

Results

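Integrins and laminins were followed as a gene family in nuclei of fetal mouse lung. Integrins are paired alpha and beta receptors that hold cells to matrix or to other cells, and laminins are trimers of an alpha, a beta and a gamma chain that build the basement membrane, to which many integrins bind. In the lung before birth, alveolar epithelium and the stroma beneath it share a basement membrane, and leukocytes use their own integrins to enter and stay in tissue. Genes were taken by name, and both feature files held 37 members among 32285 gene features: 18 integrin alpha genes, 8 integrin beta genes and 11 laminin genes.

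Lungs of fetuses of 1 wild-type mother a group were taken on gestation day 18, and 1 library of RNA and accessible chromatin from the same nuclei was made per group. Mice were aged 6 to 8 weeks when treatment began. The mother of the OVA group was sensitised with 100 µg ovalbumin (OVA) in alum on days -21 and -7 and was given 500 µg OVA into the nose, repeatedly, between gestation days 4 and 17. The mother of the PBS group had alum on the same days and PBS into the nose, so both groups share alum and intranasal dosing. The PBS library pooled 9 fetuses and the OVA library 8, so the fetuses of a group share their mother. Cells sorted as ILC2s (CD45+, lineage negative, ST2+), as CD45+ immune cells and as EpCAM+ epithelium were mixed, so the mix sets how many nuclei of each type there are. The lineage antibodies of the ILC2 sort included CD11b and CD11c, the products of Itgam and Itgax. There were no replicate libraries or mothers, so the values compare 2 libraries and not the maternal treatments, and no test was made.

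After filtering, 4279 PBS and 4996 OVA nuclei remained, with medians of 1114 and 1820 unique molecular identifiers (UMIs). Of all gene UMIs, 45.2% (PBS) and 29.2% (OVA) were mitochondrial, and these were left out of the denominator. The libraries had 54 barcodes in common, 30 of them among the kept nuclei. A nucleus was gated to a type when it held at least 2 different markers of that type and at least 2 times as many as of any other type; none of the markers is an integrin or a laminin. The gates held 366 PBS and 525 OVA nuclei of group 2 innate lymphoid cells (ILC2s), 227 and 372 of macrophages, 577 and 428 of alveolar type 2 (AT2) cells, 181 and 279 of alveolar type 1 (AT1) cells, 561 and 861 of fibroblasts, 211 and 218 of myofibroblasts and 97 and 132 of pericytes. Another 44.5% of PBS and 38.3% of OVA nuclei passed no gate. The labels name ILC2s, immune and epithelial cells, yet many nuclei passed the fibroblast, myofibroblast and pericyte gates. Levels are UMIs summed over a type as counts per 1000000 nuclear-gene UMIs (CPM). Brackets hold 95% Poisson intervals for levels and 95% exact conditional intervals for ratios, which cover counting error only. Where a pair of values is given, PBS stands first. Levels are compared between types and libraries for 1 gene at a time, since genes differ in length.

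Marker sums were also taken within the gates. The gate rule itself favours a gate's own markers and limits those of other types, so these sums are no independent check. The summed AT2 markers were 34452 and 30574 CPM in AT2-gated nuclei, but still 1033 and 542 CPM in ILC2-gated and 577 and 383 CPM in macrophage-gated nuclei, so AT2 RNA was also counted in nuclei of other gates. The summed AT1 markers were 12082 and 11434 CPM in AT1-gated and 804 and 644 CPM in AT2-gated nuclei. The 30 stromal markers summed to 8621 and 8512 CPM in fibroblast-gated, 1026 and 596 CPM in AT2-gated and 553 and 368 CPM in ILC2-gated nuclei. Of the AT2-gated nuclei, 380 PBS and 267 OVA nuclei fell in the cluster with AT2 markers, and 88 and 97 fell in macrophage clusters, so ratios of members in AT2-gated nuclei are given with their cluster value.

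The promoters below belong to 7 of the 12 members whose start was most accessible in the very type with the most RNA in both libraries, and they are shown because those starts carry the match between RNA and chromatin described further down. Sequences are from RefSeq on GRCm38.p6, the build of the files, and run 5′ to 3′ from 250 bases before to 50 after a start. The RefSeq table held 26 promoters of 23 of the 37 members. Capitals mark matches on either strand to the letters of 7 motifs that are spelled out after the sequences, and matches may overlap. Itga3 and Lamb3 stand for AT1 nuclei, Itga8 for fibroblasts, Itgam for macrophages, Itgb7 for ILC2s, and Itga1 and Lamb1 for pericytes.
Itga3, chr11:95076665-95076964 (- strand): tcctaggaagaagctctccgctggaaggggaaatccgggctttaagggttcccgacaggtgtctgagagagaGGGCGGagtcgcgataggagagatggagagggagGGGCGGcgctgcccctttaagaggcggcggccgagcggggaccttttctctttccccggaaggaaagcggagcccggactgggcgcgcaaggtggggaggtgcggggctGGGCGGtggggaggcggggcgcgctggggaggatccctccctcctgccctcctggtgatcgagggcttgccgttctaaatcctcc
Lamb3, chr1:193301744-193302043 (+ strand): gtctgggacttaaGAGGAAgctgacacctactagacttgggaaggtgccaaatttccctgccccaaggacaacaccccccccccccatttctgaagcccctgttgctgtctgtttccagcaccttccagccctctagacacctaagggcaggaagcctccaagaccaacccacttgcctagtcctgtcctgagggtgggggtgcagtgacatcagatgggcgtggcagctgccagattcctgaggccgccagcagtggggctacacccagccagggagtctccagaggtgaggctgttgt
Itga8, chr2:12301895-12302194 (- strand): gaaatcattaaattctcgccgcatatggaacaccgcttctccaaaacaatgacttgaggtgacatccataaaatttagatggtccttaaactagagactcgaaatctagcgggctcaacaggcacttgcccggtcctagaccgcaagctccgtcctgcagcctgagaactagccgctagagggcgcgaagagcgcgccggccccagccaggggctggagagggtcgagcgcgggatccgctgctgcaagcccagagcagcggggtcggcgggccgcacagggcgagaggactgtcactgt
Itgam, chr7:128062390-128062689 (+ strand): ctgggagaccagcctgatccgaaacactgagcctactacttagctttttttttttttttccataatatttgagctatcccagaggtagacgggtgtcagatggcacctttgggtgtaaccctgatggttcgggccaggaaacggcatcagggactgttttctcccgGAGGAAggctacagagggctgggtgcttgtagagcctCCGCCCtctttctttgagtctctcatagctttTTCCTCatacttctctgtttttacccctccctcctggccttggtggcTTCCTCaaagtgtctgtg
Itgb7, chr15:102231886-102232185 (- strand): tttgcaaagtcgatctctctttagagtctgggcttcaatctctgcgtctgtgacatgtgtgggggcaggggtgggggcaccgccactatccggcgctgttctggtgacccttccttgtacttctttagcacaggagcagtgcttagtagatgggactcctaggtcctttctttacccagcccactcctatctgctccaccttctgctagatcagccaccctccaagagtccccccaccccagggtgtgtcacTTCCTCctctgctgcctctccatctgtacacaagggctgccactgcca
Itga1, chr13:115101915-115102214 (- strand): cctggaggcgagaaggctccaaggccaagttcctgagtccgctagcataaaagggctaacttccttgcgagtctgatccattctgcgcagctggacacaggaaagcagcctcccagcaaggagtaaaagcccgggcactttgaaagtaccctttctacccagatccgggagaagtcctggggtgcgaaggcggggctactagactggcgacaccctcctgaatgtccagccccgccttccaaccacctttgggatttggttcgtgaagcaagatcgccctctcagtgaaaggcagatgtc
Lamb1, chr12:31265043-31265342 (+ strand): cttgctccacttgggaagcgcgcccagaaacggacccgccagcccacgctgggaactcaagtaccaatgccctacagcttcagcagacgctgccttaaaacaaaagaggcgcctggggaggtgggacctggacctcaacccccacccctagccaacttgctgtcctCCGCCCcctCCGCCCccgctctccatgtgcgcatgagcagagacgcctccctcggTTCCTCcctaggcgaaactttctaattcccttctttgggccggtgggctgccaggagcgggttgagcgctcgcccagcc

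Each of the 7 windows overlapped a called peak in both libraries. The Itgam window held 3 matches to the PU.1 letters, at bases 167, 236 and 283 of the window, and 1 GC box match. The Itga3 window held 3 GC box matches and that of Lamb1 held 2, with 1 PU.1 match. Itgb7 and Lamb3 had 1 PU.1 match each, and no searched motif was found in the windows of Itga1 and Itga8. The PU.1 letters GAGGAA were found in 14 of the 26 member promoters, against 28.3% of all 32851 promoters of this length in the table. A GC box, GGGCGG, was found in 12 member promoters, against 35.7% of all. The RUNX letters TGTGGT were in 3 member promoters and 16.8% of all, and the TEAD letters GGAATG also in 3, with 14.7% of all. The AP-1 letters TGACTCA were in 2 member promoters and 5.20% of all, and the GATA letters AGATAA were in 1 and 11.2% of all. A TATA box, TATAAA, was in 0 member promoters, against 13.6% of all. These shares were not matched for base composition and carry no test. The matches describe letters only, and a window without a match says nothing of a factor.

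Across types, most members had a clear home that was the same in both libraries. Of the 27 members with at least 30 UMIs in each library, 24 had the same highest type in both, against 58.1% of all genes under the same rule. AT1 nuclei led for 7 of the 24, ILC2s for 6, pericytes for 5, myofibroblasts for 3, macrophages for 2 and fibroblasts for 1, and AT2 nuclei led for 0. For 21 of the 27 the highest type also exceeded the next one beyond the counting interval in both libraries. For this count the share over all genes was not computed. In the heat map of levels the AT1, ILC2 and stromal blocks stand apart in both libraries.

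**Figure D1:**
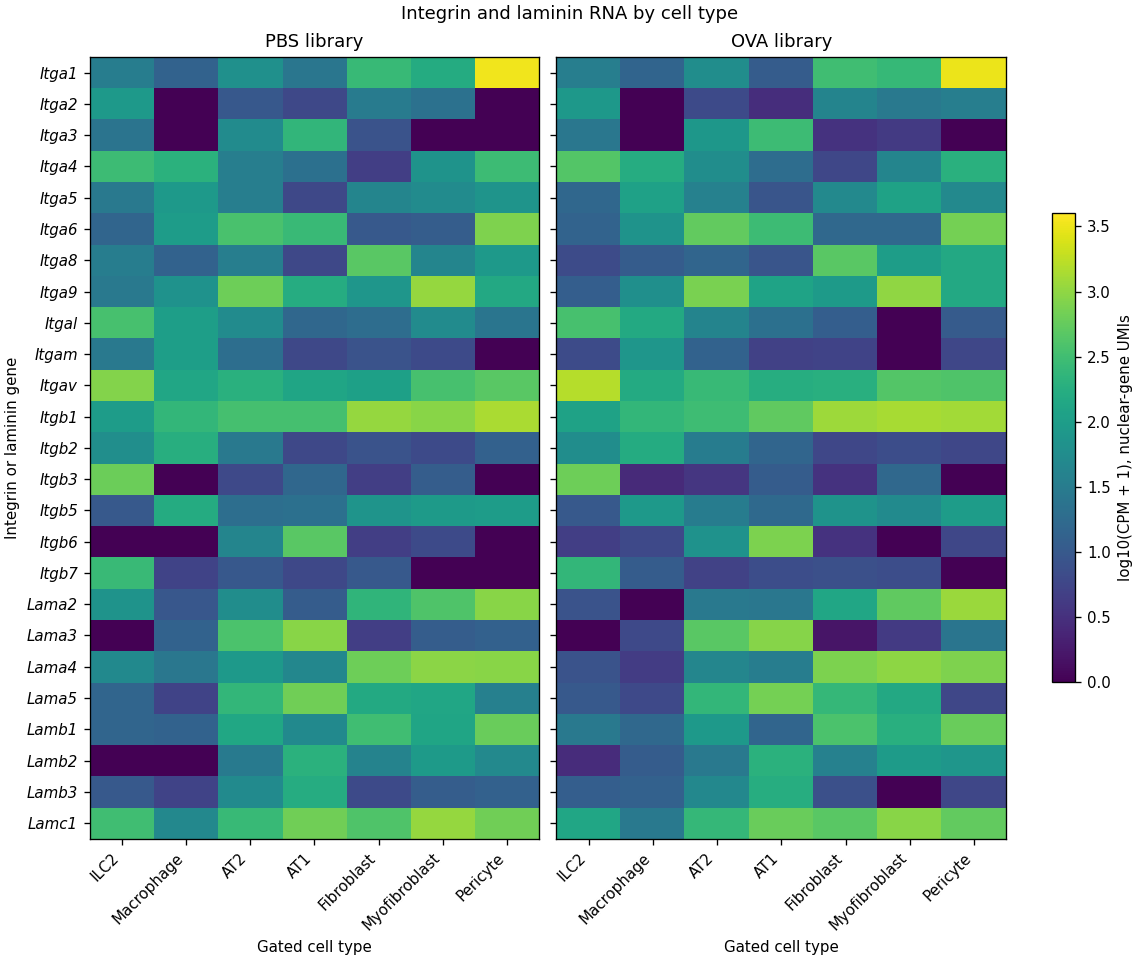
RNA level of 25 members with at least 100 UMIs over both libraries (rows) in 7 gated types (columns), as log10(CPM + 1), with the PBS library on the left and the OVA library on the right. Laminin chains of the epithelium are brightest in AT1 nuclei, Itgb3, Itgb7 and Itgav in ILC2s and Itga1 in pericytes, in both panels.

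The laminin chains of the alveolar epithelium were highest in AT1 nuclei. Lama3 and Lamb3 encode an alpha and a beta chain that join in a trimer of epithelial basement membranes. Lama3 was at 922 CPM (793 to 1066) in the PBS and 879 CPM (799 to 965) in the OVA library in AT1 nuclei. In AT2 nuclei it was at 381 and 481 CPM, so AT1 exceeded AT2 2.42-fold (1.98 to 2.96) and 1.83-fold (1.58 to 2.11). Lamb3 was at 166 CPM (114 to 233) in the PBS and 175 CPM (139.8 to 215) in the OVA library in AT1 nuclei and at 52.4 and 47 CPM in AT2 nuclei, and AT1 exceeded AT2 3.17-fold (1.88 to 5.38) and 3.71-fold (2.47 to 5.70). With clusters in place of gates, AT1 exceeded AT2 nuclei by less for both chains. Lama3 then had 327 and 609 UMIs in AT1 and 412 and 565 UMIs in AT2 nuclei. Lamb3 had 64 and 119 UMIs in AT1 and 59 and 72 UMIs in AT2 nuclei. These clusters held 446489 and 663054 nuclear-gene UMIs (AT1) and 673900 and 830249 (AT2). Among the gated types, both chains were therefore RNA of the alveolar epithelium first of all, with the higher level in AT1 nuclei. Airway epithelium was not compared. In each of the other 5 types, Lama3 stayed at or under 24.3 CPM in both libraries.

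Lama5, the alpha chain of the broadly laid epithelial and vascular laminins, was also highest in AT1 nuclei, at 660.0 and 692 CPM. AT2 nuclei had 245 and 238 CPM and fibroblasts 155 and 251 CPM. In the clusters, Lama5 had 279 and 457 UMIs in AT1 and 253 and 284 UMIs in AT2 nuclei, over the cluster totals given above, again a smaller margin. Lamb2, a beta chain that can pair with Lama5, was at 196 and 199 CPM in AT1 nuclei and at 90.7 and 94.3 CPM in myofibroblasts. AT1 nuclei had 2.17-fold (1.20 to 4.08) and 2.11-fold (1.39 to 3.26) the Lamb2 level of the next type.

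The epithelial integrins shared the AT1 home. Itgb6, which pairs with Itgav into an epithelial receptor able to activate latent TGF-beta, was at 479 CPM (387 to 585) in the PBS and 769 CPM (694 to 849.5) in the OVA library in AT1 nuclei. AT2 nuclei had 41.9 and 67.7 CPM, and AT1 exceeded them 11.4-fold (7.23 to 18.7) and 11.3-fold (8.41 to 15.6) by gate. With clusters in place of gates that margin was smaller. Itgb6 then had 210 and 497 UMIs in AT1 and 62 and 181 UMIs in AT2 nuclei, over the cluster totals given above. Itga3, an alpha chain of laminin receptors, was at 237 CPM (174 to 315) in the PBS and 289 CPM (244 to 340.2) in the OVA library in AT1 nuclei and at 54.2 and 78.8 CPM in AT2 nuclei. In the clusters its margin was smaller too, with 119 and 189 UMIs in AT1 and 72 and 99 UMIs in AT2 nuclei. Macrophages and pericytes had 0 UMIs of Itga3 in both libraries. Itga6, another laminin-binding alpha chain, followed a different order, with pericytes first at 813 and 705 CPM and AT2 nuclei next at 367 and 547 CPM. Pericytes exceeded AT2 nuclei 2.22-fold (1.66 to 2.93) and 1.29-fold (1.06 to 1.56) by gate. With clusters in place of gates Itga6 was at 659 and 719.5 CPM in pericytes and 482 and 719 CPM in AT2 nuclei, so that order was not clear in the OVA library. Itgb4, the beta chain that joins Itga6 in hemidesmosomes, had only 6 and 5 UMIs over all 7 types.

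Among the gated types, which lack endothelium, the stroma led for a further set of laminin chains. Lama2 and Lama4 are the alpha chains of mesenchymal and vascular laminins, and Lamb1 and Lamc1 are the beta and gamma chains that join them. Lama2 was at 910.5 CPM (716 to 1141) in the PBS and 1162 CPM (1019 to 1319) in the OVA library in pericytes, then at 400.3 and 526 CPM in myofibroblasts and 229 and 136 CPM in fibroblasts. Pericytes had 2.27-fold (1.63 to 3.18) and 2.21-fold (1.81 to 2.70) the level of myofibroblasts. Lama4 was high in all stromal types, at 939 and 983 CPM in myofibroblasts, 898 and 812 CPM in pericytes and 632 and 778 CPM in fibroblasts, and in the PBS library the first of these did not exceed the second beyond counting error.

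Lamb1 was highest in pericytes, at 595 and 593 CPM, and next in fibroblasts, at 313 and 375 CPM. Lamc1 was highest in myofibroblasts, at 1073 CPM (929.5 to 1232) in the PBS and 925 CPM (824 to 1035) in the OVA library, yet it was shared more widely. Pericytes had 656 and 545 CPM, AT1 nuclei 655 and 590.0 CPM, fibroblasts 402 and 478 CPM and AT2 nuclei 264 and 250.2 CPM, and macrophages were lowest at 46.7 and 27.4 CPM. Lamc3, a rarer gamma chain, had 12 and 24 UMIs in myofibroblasts out of 24 and 32 over the 7 types. Lama1, the alpha chain of early embryonic laminin, had 14 and 15 UMIs in all, of which 10 and 5 UMIs came from myofibroblasts.

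Integrin alpha chains set the stromal types apart. Itga1, a collagen receptor chain, was at 3278 CPM (2898 to 3693) in the PBS and 3146 CPM (2908 to 3398) in the OVA library in pericytes. That was 12.4-fold (10.1 to 15.3) and 10.1-fold (8.96 to 11.3) the level in fibroblasts, the next type, which had 264 and 312 CPM. Itga8, which binds nephronectin and other RGD ligands, was at 482 CPM (426 to 544) in the PBS and 479.7 CPM (447 to 514) in the OVA library in fibroblasts and at 85 and 146 CPM in pericytes. Itga9, a receptor chain for tenascin and related ligands, was at 1078 CPM (934 to 1237) in the PBS and 1007 CPM (902 to 1122) in the OVA library in myofibroblasts. AT2 nuclei came next for Itga9 at 643 and 742 CPM, with 368 and 537 UMIs, and with clusters they had 662 and 841 CPM. AT1 nuclei had only 166 and 120.4 CPM, so the alveolar types stood in the opposite order to that of Itgb6 and Itga3.

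Itga7, a laminin receptor chain of muscle, was at 97.1 and 48.6 CPM in pericytes and 41.9 and 34.6 CPM in AT2 nuclei, on 8 and 10 UMIs in pericytes, and the order was not clear. Itgb8, which pairs with Itgav, had 13 and 17 UMIs in myofibroblasts and 13 and 23 UMIs in fibroblasts. Itgb1, the partner of most laminin- and collagen-binding alpha chains, was broad, from 96.8 and 118 CPM in ILC2s to 1372 and 1249.5 CPM in pericytes. Fibroblasts had 1061 and 1168 CPM and myofibroblasts 913 and 1329.8 CPM, and its highest type differed between the libraries, as it did for Itga5 and Itgb5.

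**Figure D2:**
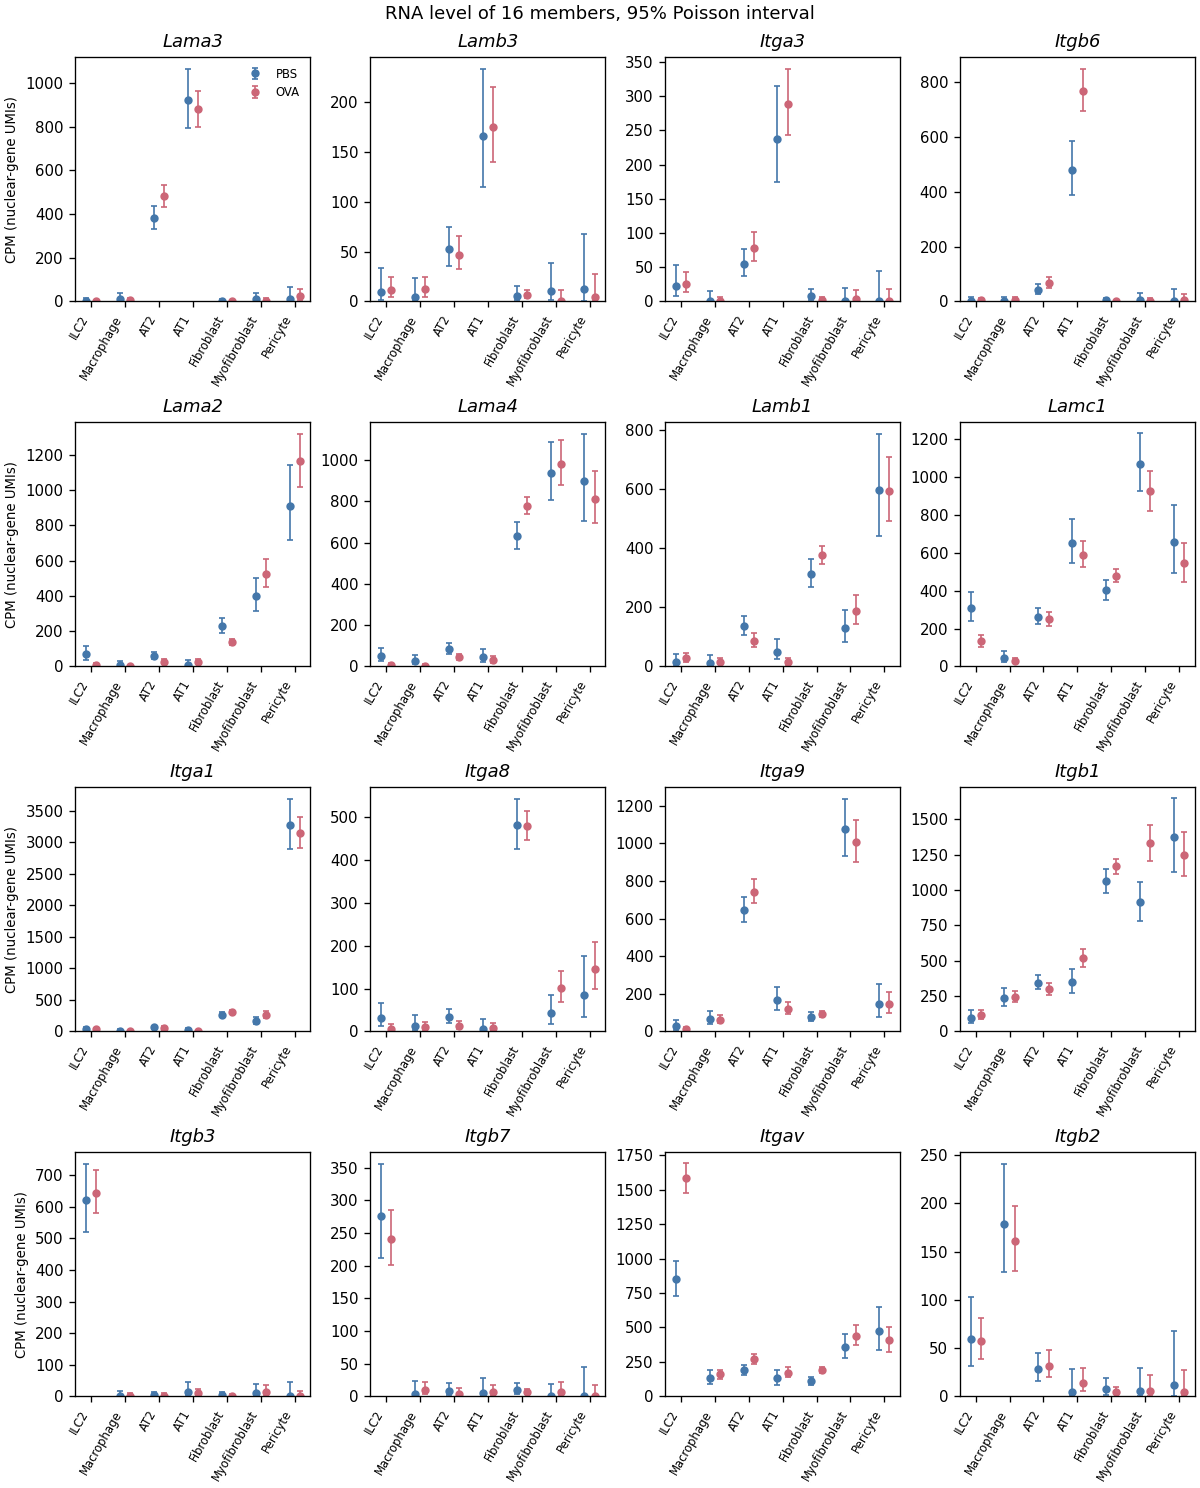
RNA level in CPM (vertical axis, from 0) of 16 members in 7 gated types, for the PBS library (blue) and the OVA library (red), with 95% Poisson intervals as bars. The epithelial laminin chains peak in AT1, the stromal chains spread over fibroblasts, myofibroblasts and pericytes, and Itgb3 and Itgb7 are high only in ILC2 nuclei among the types drawn.

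Among the gated types, ILC2s were highest for a set of integrins, several of which were also high in the leukocyte clusters described below. Itgb3, a beta chain that pairs with Itgav, was at 623 CPM (522 to 737) in the PBS and 645 CPM (579 to 717) in the OVA library in ILC2s, and no other gated type passed 15.2 CPM. That was 41.2-fold (13.8 to 202) and 42.4-fold (18 to 131) the level of the next type, which rested on 3 and 5 UMIs. Itgav itself was at 848 CPM (730.3 to 980.3) in the PBS and 1583 CPM (1479 to 1693) in the OVA library in ILC2s, against 473 and 408 CPM in pericytes and 358 and 438 CPM in myofibroblasts. Both chains of that pair therefore had their highest level in the same type.

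Itgb7, whose protein pairs with that of Itga4 or Itgae in lymphocyte homing and retention, was at 277 CPM (211 to 356) in the PBS and 240.4 CPM (201 to 285) in the OVA library in ILC2s, 30.4-fold (12.3 to 97) and 23.4-fold (10.5 to 65) the level of the next type. Itga4 was at 295 and 433 CPM in ILC2s, and in the PBS library pericytes had as much within counting error, at 291 and 189.6 CPM. Itgae had 4 and 13 UMIs in ILC2s and at most 4 in any other type. Itgal, the alpha chain of LFA-1, was at 355 and 359 CPM in ILC2s and 102 and 152 CPM in macrophages. Itga2, a collagen receptor chain, was at 87.6 and 83.2 CPM in ILC2s and 30.9 and 41.1 CPM in fibroblasts. Itgb1, with which Itga2 pairs, was lowest in ILC2s of all 7 types.

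Among the gated types, which lack monocytes, macrophages led for the myeloid pair of Itgam and Itgb2, which together form the complement receptor known as Mac-1. Itgb2, the common beta chain of leukocyte integrins, was at 178 CPM (129 to 241) in the PBS and 161 CPM (130.0 to 197) in the OVA library in macrophages and 59.9 and 57.3 CPM in ILC2s. Itgam was at 102 CPM (65.3 to 152) in the PBS and 77 CPM (56.2 to 103) in the OVA library in macrophages and 27.7 and 5.55 CPM in ILC2s, a type sorted in part against its protein. Within the macrophage gate, 18 of the 24 PBS and 28 of the 45 OVA UMIs of Itgam lay in a single cluster of 45 and 44 gated nuclei led by Wfdc17, Car4, Spp1 and Fabp4, where it was at 256 and 324 CPM. Another cluster, led by C1qa, C1qb and Pf4, held 33 and 35 gated nuclei and 9 and 33 UMIs of Itga9 out of 16 and 36 in the gate. Macrophages were thus uneven in both chains, and clusters were seen before these were named.

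Itgax, the CD11c chain, had only 4 and 7 UMIs in macrophages, and Itgad had 1 and 4 UMIs over all types. Itga5, the fibronectin receptor chain, was at 84.9 and 113 CPM in macrophages and 53.4 and 119 CPM in myofibroblasts. Itgb5, another partner of Itgav, was at 166 and 85.6 CPM in macrophages and 97.1 and 97.2 CPM in pericytes. For both genes, the highest type did not exceed the next one beyond the counting interval in either library. Different clusters made up most of the macrophage gate, with 62 of 227 PBS and 243 of 372 OVA nuclei in the largest OVA cluster.

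Monocytes and mast cells or basophils held fewer than 50 gated nuclei in the PBS library, so their levels are given from marker-named clusters, a choice made after the nuclei were counted. The monocyte-like cluster (81 and 210 nuclei) had the highest Itga4 of all named clusters compared, at 891 CPM (648 to 1197) in the PBS and 1366 CPM (1185 to 1566) in the OVA library. Its Itgam was at 263 and 308 CPM, above the 102 and 77 CPM of macrophage-gated nuclei. Itgal in the monocyte-like cluster was at 446 and 335 CPM. The mast-cell- or basophil-like cluster (61 and 122 nuclei) had Itgb3 at 504 and 279 CPM, Itgb7 at 312 and 208 CPM and Itga2 at 192 and 158 CPM. The ILC2 cluster had 709 and 679.9 CPM of Itgb3 and 299 and 255 CPM of Itgb7 by the same rule. Itga2b, the platelet chain that pairs with Itgb3, had 6 and 27 UMIs in that cluster, at 144 and 193 CPM, while the 7 gated types had 17 and 25 UMIs of it in all. Itgb3 and Itgb7 were therefore high in ILC2s among the gated types and also in this cluster.

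Members under 30 UMIs in a library numbered 10: Lamc3, Lama1, Itga10, Itga11, Itga2b, Itgad, Itgae, Itgax, Itgb4 and Itgb8. Their highest type was given above where a few UMIs gave one, and it is a description at this depth. Itga10 had 13 and 23 UMIs and Itga11 had 6 and 9. No member was without UMIs over the 7 types in either library.

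Between the libraries most levels differed by less than 2-fold. Of 95 member and type pairs with at least 30 UMIs, 3 reached 2-fold in favour of OVA with an interval clear of equality, against 2.79% of 32280 such pairs over all genes. A further 2 reached 2-fold in favour of PBS, against 2.08% over all genes. Both shares are near the background. By type, the median log2 ratio of all genes with at least 100 UMIs ran from 0.09 to 0.22, so small positive ratios were general.

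In the epithelium, among values chosen after they were seen, Itgb6 in AT1 nuclei was at a log2 ratio of 0.68 (interval 0.36 to 1.02) and Lama3 at -0.07 (interval -0.32 to 0.19). The summed AT1 markers were 12082 and 11434 CPM in AT1-gated nuclei, but the gate selects on them, so no conclusion on Itgb6 is drawn. In AT2-gated nuclei Itgb6 was at 0.69 (interval -0.04 to 1.46), from 24 and 49 UMIs, but at 1.24 (0.82 to 1.68) in the AT2 cluster, from 62 and 181 UMIs, and at 0.41 (-0.37 to 1.22) where gate and cluster agree. Itga6 in AT2-gated nuclei was at 0.58 (interval 0.33 to 0.83) and in the AT2 cluster at 0.58.

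Itgav lay above equality in ILC2s, fibroblasts and AT2 nuclei without passing 2-fold in any. It was at 0.90 (interval 0.67 to 1.14) in ILC2s, from 184 and 856 UMIs, and 0.85 in the ILC2 cluster. With all gene UMIs as denominator the ILC2 value was 1.16. In fibroblasts Itgav was at 0.79 (interval 0.39 to 1.21), in AT2 nuclei at 0.50 (interval 0.16 to 0.85), with 0.80 in the AT2 cluster, and in pericytes at -0.21 (interval -0.78 to 0.37). Its partner Itgb3 in ILC2s was at 0.05 (interval -0.24 to 0.35). Itga4 in ILC2s was at 0.55 (interval 0.15 to 0.97) and its partner Itgb7 at -0.20 (interval -0.65 to 0.26). In nuclei that gate and cluster agree on, Itga4 was at 0.43 (-0.00 to 0.88), an interval that reaches equality, and the median gene with at least 100 UMIs in ILC2s was at 0.17. The ILC2 gate held 9 PBS and 44 OVA nuclei of the cluster with B cell markers. Itgal in ILC2s was at 0.01 (interval -0.37 to 0.42) and Itga2 at -0.07 (interval -0.88 to 0.78), so not all alpha chains lay above equality, and differences between chains were not tested.

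The fibroblast gate drew on different clusters in each library, with 107 PBS and 585 OVA nuclei in the cluster led by Cemip and C7 and 366 PBS and 202 OVA nuclei in the one led by Bmp8a and Wnt2. Itgav was 0.45 (-0.11 to 1.06) in the first and 1.01 (0.18 to 1.87) in the second. Lama5 in fibroblasts was at 0.70 (interval 0.36 to 1.05) over the gate, but 1.26 (0.65 to 1.93) in the first cluster and 0.28 (-0.29 to 0.84) in the second. Lama2 was lower in OVA fibroblasts, at -0.75 (interval -1.08 to -0.43) over the gate. Within the clusters it was -0.47 (-1.04 to 0.15) and -0.44 (-1.44 to 0.51), and neither interval left out equality. Lama4 was 0.08 (-0.16 to 0.34) and 0.67 (0.33 to 1.00) in the same clusters.

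Lamc1 in ILC2s was the lowest ratio among pairs with at least 100 UMIs, at -1.21 (interval -1.71 to -0.71), from 67 and 72 UMIs or 309 and 133 CPM. In the ILC2 cluster it was -0.99, and in nuclei that gate and cluster agree on -1.17. Beside it, the 30 stromal markers summed to 553 and 368 CPM in ILC2-gated nuclei, with 9 and 6 of them at 0, and the AT2 markers to 1033 and 542 CPM. Lama2 and Lama4, whose highest types were stromal, were at 69.2 and 7.40 CPM and 50.7 and 7.40 CPM in the same nuclei. The part of RNA from other cells in the Lamc1 difference was not tested. ILC2-gated nuclei had medians of 854 and 1264 UMIs.

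A further 3 pairs past the rule rested on few UMIs or on the gate. Itga8 in myofibroblasts was at 1.23 (interval 0.09 to 2.56) by gate, from 8 and 33 UMIs, but -1.54 in the myofibroblast cluster, on 8 and 4 UMIs. Itga5 in myofibroblasts was at 1.15 (interval 0.12 to 2.32), from 10 and 39 UMIs, and 1.07 in the cluster. Lama2 in AT2-gated nuclei was at -1.06 (interval -1.94 to -0.22), from 33 and 20 UMIs, yet 0.70 in the AT2 cluster on 2 and 4 UMIs. The AT2 gate held 73 PBS and 32 OVA nuclei of stromal clusters. Lamb1 in AT2 nuclei was at -0.65 (interval -1.15 to -0.15), and -0.44 in the cluster.

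**Figure D3:**
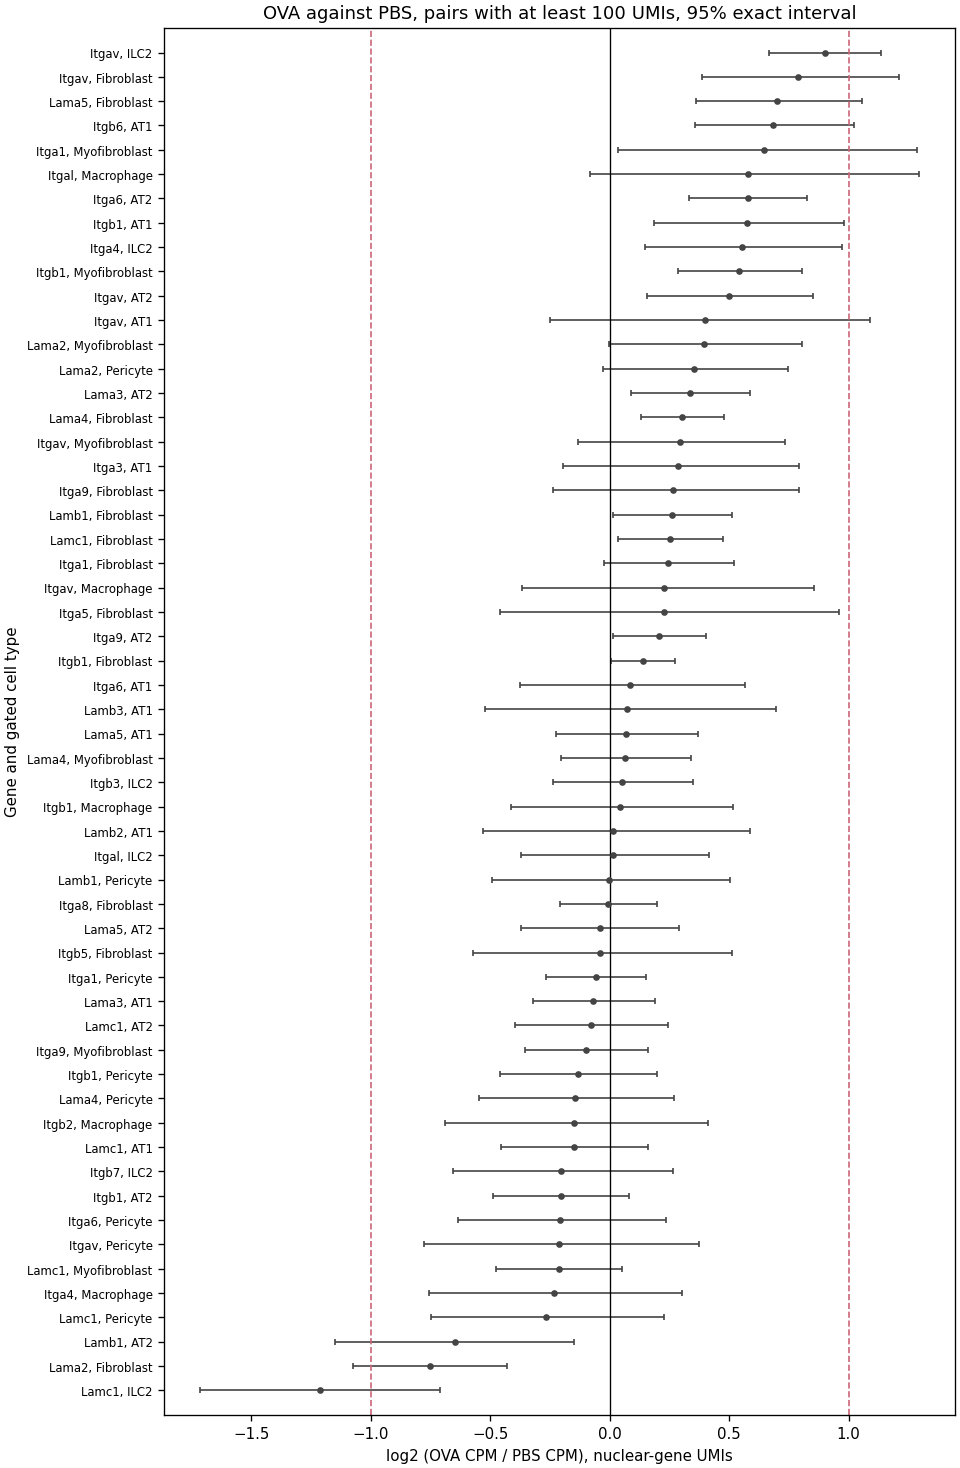
Ratio of OVA to PBS level on the log2 scale (horizontal axis) for 56 member and type pairs with at least 100 UMIs, with 95% exact intervals as bars, a solid line at equality and dashed lines at 2-fold. Lamc1 in ILC2s passes the lower dashed line and the other pairs drawn lie between the dashed lines.

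Accessible chromatin of the same nuclei gave a second readout that the gates did not use. Accessibility was the transposition counts of peaks within 1 kb of a transcript start, per 1000000 counts in peaks of the same nuclei (ATAC CPM). In the PBS library, 14 of 23 members with enough counts had their most accessible start in the type with the highest RNA, against 26.5% of all genes. In the OVA library it was 15 of 26, against 26.4%. In both libraries it held for 12 of 23. The count depends on how types are drawn, being 3 of 19 with at least 3 markers and 6 of 25 with clusters. The share over all genes was not computed for these settings or for both libraries together. A match above that of all genes is therefore shown only for the main gates, in each library on its own. AT1 and AT2 changed places at the starts of Lamb3, Lama5 and Lama3 in at least 1 library. Itga1, Itga3 and Itgb7 matched in both libraries under all 3 ways.

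In AT1 nuclei the Itga3 start was at 65.9 and 62.1 ATAC CPM, and AT2 nuclei had 30.9 and 38 ATAC CPM and macrophages 6.14 and 4.74 ATAC CPM. The Lamb3 starts were open in both alveolar types, at 29.9 and 46 ATAC CPM in AT1 and 26.9 and 23.6 ATAC CPM in AT2 nuclei. Their intervals overlapped in the PBS library and did not in the OVA library, whereas Lamb3 RNA was higher in AT1 nuclei beyond the counting interval in each. Itgb4 had an open start in AT1 nuclei, at 37.1 and 38.5 ATAC CPM, and in AT2 nuclei, at 28.6 and 23.6 ATAC CPM, beside its 6 and 5 UMIs.

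The Itgb7 start was most accessible in ILC2s, at 28.7 and 37.9 ATAC CPM, with 16 and 14.5 ATAC CPM in macrophages and 0 counts in pericytes. The Itgam start was at 36.8 and 37.6 ATAC CPM in macrophages and 2.18 and 4.04 ATAC CPM in ILC2s, and that of Itgb2 was at 33.5 and 40.7 ATAC CPM and 18.2 and 21.5 ATAC CPM. Itgax, whose RNA was scarce, had its start at 17 and 19.8 ATAC CPM in macrophages and at most 7.19 ATAC CPM elsewhere. Like that of Itgb7, the Itgb2 start had 0 counts in pericytes. The Lamb1 start had 0 counts in macrophages of both libraries and 22.5 and 24.9 ATAC CPM in pericytes. The Itga1 start was at 52.4 and 80.8 ATAC CPM in pericytes, 47.1 and 27.7 ATAC CPM in myofibroblasts and 32.7 and 32.6 ATAC CPM in fibroblasts, and in the PBS library the intervals of pericytes and myofibroblasts overlapped. Lama2 and Lama4 starts held few counts, 57 and 78 counts and 68 and 127 counts over all types, with 0 in macrophages of both libraries for Lama4 and of the PBS library for Lama2. Lamc3 was at 12.2 and 16.1 ATAC CPM in myofibroblasts and 8.99 and 28.4 ATAC CPM in pericytes, and Itgb8 at 16.5 and 26.6 ATAC CPM and 40.4 and 17.8 ATAC CPM, and most of the few UMIs of both genes were stromal too.

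Other starts did not follow the RNA. Itgb3, with RNA almost only in ILC2s among the gated types, had its start at 33.1 and 24 ATAC CPM in ILC2s and 37.3 and 33.8 ATAC CPM in myofibroblasts. Summed over all 14 peaks along its gene, ILC2s were highest, at 184 and 197 ATAC CPM, against 74.9 and 68.4 ATAC CPM in pericytes and 71 and 86.9 ATAC CPM in myofibroblasts. Itgav had a start of even accessibility, from 31.2 to 46.3 ATAC CPM in the PBS library. For Itgal, with most RNA in ILC2s, the start was at 38.9 and 32.1 ATAC CPM there and 45.3 and 35.7 ATAC CPM in macrophages. Sums along a gene, given for some members only, did not always follow the RNA either. Along Itgal, macrophages were again highest, at 47.2 and 37.1 ATAC CPM, against 38.9 and 32.1 ATAC CPM in ILC2s. Along Lamb3, fibroblasts were highest, at 228 and 226 ATAC CPM, against 61.1 and 95.3 ATAC CPM in AT1 nuclei. Along Itgav, ILC2s were highest in neither library. Itga6 had its most accessible start in AT1 nuclei, at 74.3 and 64.2 ATAC CPM, while its RNA was highest in pericytes. Lamb2 had its most accessible start in pericytes, at 46.4 and 66.6 ATAC CPM, while its RNA was highest in AT1 nuclei. The Itgb6 start had only 2 and 0 counts in AT1 nuclei, of 33 and 38 counts over all types, while peaks along the gene, 15 and 18 in number, were highest there at 189 and 208 ATAC CPM, with 105 and 100.5 ATAC CPM in AT2 nuclei. The Lama1 start was open in fibroblasts, at 34.8 and 36.4 ATAC CPM, and AT2 nuclei, at 30.4 and 24.6 ATAC CPM, for a gene with 14 and 15 UMIs. The Itga2 start was highest in ILC2s of the PBS library, at 22.9 ATAC CPM. In the OVA library it was highest in pericytes, at 24.9 against 20.7 ATAC CPM in ILC2s. The Itga11 start was at 12.8 and 11.6 ATAC CPM in myofibroblasts and 0.944 and 0.279 ATAC CPM in macrophages, beside 6 and 9 UMIs.

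No peak was called at the start of Itga4, Itgae or Itgad in either library. Along the Itga4 gene, 4 peaks in each library summed to 11.6 and 30.8 ATAC CPM in ILC2s and 8.02 and 5.02 ATAC CPM in macrophages. The Itgae gene had 7 peaks in each, highest in ILC2s at 95.3 and 94.2 ATAC CPM. Peaks were called in each library on its own, so accessibility is compared between types within a library.

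**Figure D4:**
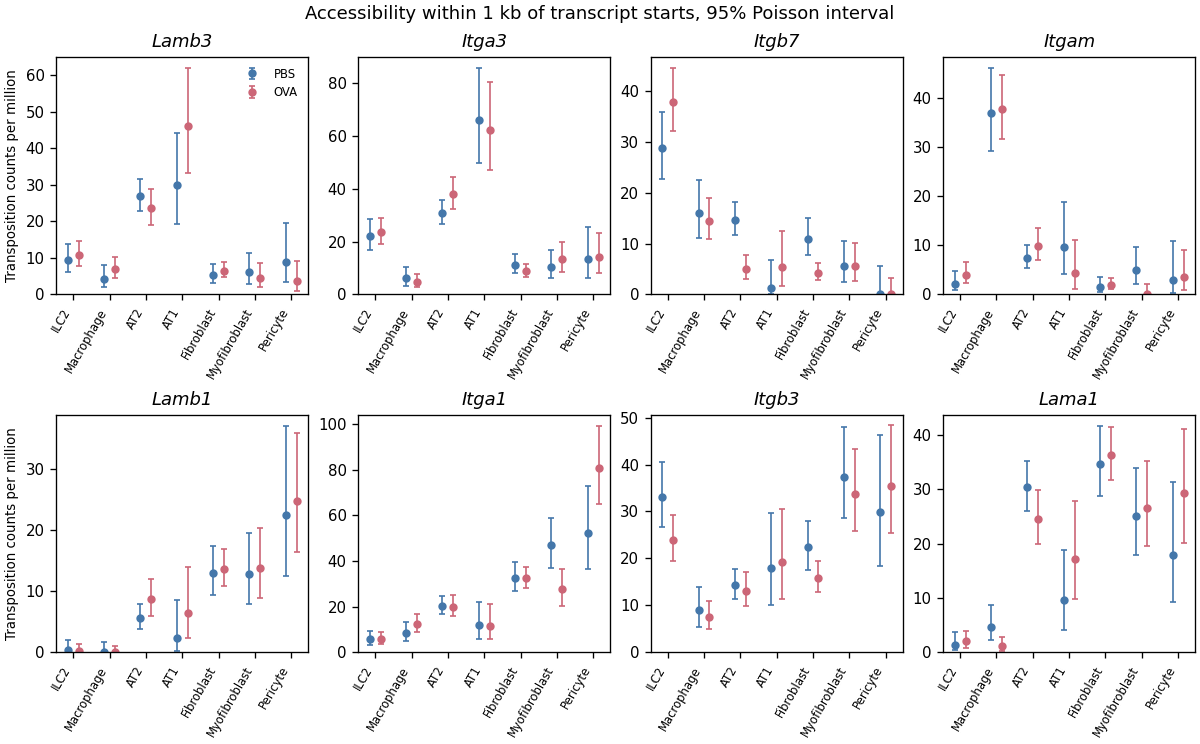
Transposition counts per 1000000 in peaks within 1 kb of transcript starts (vertical axis, from 0) of 8 members in 7 gated types, for the PBS library (blue) and the OVA library (red), with 95% Poisson intervals as bars. Itga3 and Lamb3 are highest in AT1, Itgb7 in ILC2, Itgam in macrophage and Itga1 and Lamb1 in pericyte nuclei, while Itgb3 and Lama1 do not follow their RNA.

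Several members are neighbours on mm10 in the GENCODE M21 annotation. Itgal, Itgam, Itgax and Itgad lie in this order on the plus strand of chromosome 7, with 11055 bases between Itgam and Itgax and 3718 between Itgax and Itgad. Within that row Itgal RNA was highest in ILC2s and Itgam RNA in macrophages. Lamc1 spans chr1:153218922-153332786 on the minus strand. Itga2 and Itga1 lie 20995 bases apart on chromosome 13, with ILC2s and pericytes as their highest types by RNA. Itgb6 spans chr2:60598292-60722643 and Itgav chr2:83724397-83806916.

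Genes that act with the family were described from 3 lists by their highest type. Of 27 genes of the adhesion machinery inside the cell, 22 had at least 30 UMIs in each library and 16 of those had the same highest type in both, which was AT1 for 5 and fibroblasts for 3, beside the 58.1% of all genes. Tns1, which encodes an adaptor between integrins and actin, was highest in fibroblasts at 1176 and 1364 CPM, and Vcl, which encodes vinculin, in AT1 nuclei at 862 and 1399 CPM. Fermt2, a kindlin that activates integrins, was highest in pericytes of the PBS library at 849.8 CPM and in fibroblasts of the OVA library at 1027 CPM. Fermt3, the kindlin of leukocytes, named after its values were seen, had 189 and 199.7 CPM in ILC2s and 144 and 199 CPM in macrophages, so both leukocyte types had about the same level in the OVA library. Of 102 gene and type pairs, 0 were 2-fold higher and 3 were 2-fold lower in the OVA library, where 2.79% and 2.08% of all pairs were, so the lower share is near the background. The 3 pairs were Src in ILC2s at -1.03 (-1.88 to -0.17), Pxn in AT1 nuclei at -1.01 (-1.76 to -0.24) and Ilk in AT2 nuclei at -1.63 (-2.79 to -0.57).

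Of 16 basement membrane partners and other laminin receptors, 15 had enough UMIs and 11 had the same highest type in both libraries, beside 58.1% of all genes, and 0 of 62 pairs passed 2-fold in either direction, where 2.79% and 2.08% of all pairs did. AT1 nuclei led for 4 of the 11 and pericytes for 3. Cd44, a receptor for hyaluronan and other matrix, was highest in macrophages at 3834 and 4977 CPM, and Dst, which encodes a linker of the cytoskeleton to integrins, in myofibroblasts at 789.9 and 791 CPM. Dag1, which encodes the laminin receptor dystroglycan, was highest in AT1 nuclei at 786 and 865 CPM. Genes named after their values were seen followed it, with Bcam, a receptor for the Lama5 chain, at 947 and 995 CPM in AT1 nuclei, and Agrn and Hspg2, proteoglycans of the basement membrane, at 519 and 478 CPM and 418 and 421 CPM. Nid1, which links laminin to collagen, was highest in pericytes at 595 and 545 CPM.

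Of 16 other integrin ligands, 13 had enough UMIs and 12 had the same highest type in both libraries, fibroblasts for 5 and AT1 for 4, beside 58.1% of all genes. Fn1, which encodes fibronectin, was highest in fibroblasts at 6313 and 8432 CPM, as were Thbs1, which encodes thrombospondin, at 2413 and 4106 CPM, and Fbn1, which encodes fibrillin, at 1041 and 813 CPM. Tnc, which encodes tenascin C, was highest in myofibroblasts, the type with the most Itga9, at 982 and 1643 CPM. Further ligands were named after their values were seen. Npnt, which encodes the nephronectin bound by the Itga8 receptor, was highest in AT1 nuclei at 619.7 and 660.2 CPM, whereas Itga8 was highest in fibroblasts. Icam1, a ligand of the Itgal and Itgam receptors, was highest in AT1 nuclei at 645 and 630.1 CPM, and Vcam1, a ligand of the Itga4 receptor, in fibroblasts at 211 and 236 CPM. Madcam1, a ligand of the Itgb7 receptor, had 0 UMIs. Of 53 pairs, 1 was 2-fold higher and 4 were 2-fold lower, beside 2.79% and 2.08% of all pairs. The higher one was Thbs1 in myofibroblasts at 1.02 (0.83 to 1.21), and the lower ones were Tnc in ILC2s at -2.39 (-3.64 to -1.24), Tnc in pericytes at -1.53 (-2.50 to -0.58), Fbn1 in ILC2s at -1.79 (-2.94 to -0.68) and Spp1 in macrophages at -1.13 (-1.80 to -0.46). In the ILC2-gated nuclei the 30 stromal markers summed to 553 and 368 CPM, and their part in the Tnc and Fbn1 values was not tested. In the macrophage gate, the cluster with Spp1 among its leading genes held 45 of 227 PBS and 44 of 372 OVA nuclei, and the part of that share in the Spp1 value was not tested.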

How the data were processed

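RNA and accessible chromatin were measured in the same nuclei of 2 libraries, which GEO's labels put in the PBS and the OVA group. The deposited count matrices hold whole UMI counts per gene and transposition counts per peak for each barcode, made by the authors with Cell Ranger ARC 2.0.1 on mm10, per the submitters' processing notes, with peaks called per library. The PBS library held 8019 barcodes, 11473351 gene UMIs and 66520943 transposition counts in 134977 peaks, and the OVA library 5960 barcodes, 13774959, 51197323 and 120379. Barcodes with under 200 genes or over 60% mitochondrial UMIs were dropped, and 293 and 250 doublet calls were removed (simulated doublets, 0.8% expected per 1000 nuclei). Nuclei were gated by markers as described above, and, as an alternative, clustered (3000 variable genes, 30 components, 15 neighbours, resolution 1) and named from the same markers.

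Genes were summed per type and library. Poisson and conditional binomial 95% intervals were exact and cover counting error only, since UMIs of a single library hold no spread between fetuses. A pair of gene and type was counted as 2-fold different when the ratio reached 2, its interval was clear of equality and both libraries together gave at least 30 UMIs, and types needed 50 nuclei in each library. With 1 library a group no p-value was computed. Transcript starts were those of GENCODE M21 basic, and starts needed 100 counts over the types of a library. The text names every member with at least 100 UMIs in its highest types and each member and type pair past the 2-fold rule. It also names the 3 highest and 3 lowest ratios among pairs with at least 100 UMIs. Some of the starts with a wide spread between types and, of each list, the genes with the most UMIs are named too. Other named values were chosen after they were seen. The values of 1 member, which enters the counts, are not reported here. Members, markers and gene lists were chosen with earlier results of these data known. The ratio rule was tested on simulated data. The simulated counts were Poisson draws at the pooled rates of these libraries. They held no spread between fetuses, mothers or preparations, so that test covers counting error only. Alternatives were all gene UMIs as the denominator, centring on the median gene, 3 markers, clusters, a 20% mitochondrial limit, a joint filter on RNA and chromatin counts (1000 to 25000 UMIs and 1000 to 100000 transposition counts), doublets kept, a 100 UMI minimum, the mean over single nuclei and a 2 kb window. Python 3.11.15, numpy 2.4.6, pandas 2.3.3, scipy 1.17.1, scanpy 1.11.5, scikit-learn 1.9.0 and matplotlib 3.10.9 were used.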

Additional observations from a re-analysis of the deposited data

Results flagged for a closer look

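For 3 laminin chains the OVA to PBS ratio by gate lay on opposite sides of equality in a pair of types, with each interval clear of equality. The differences between types were not tested. Lamc1 was at a log2 ratio of 0.25 in fibroblasts and -1.21 in ILC2s, 1.46 apart. In the ILC2 cluster it was -0.99 (-1.51 to -0.46). Within the fibroblast clusters, whose shares differ between the libraries, it was 0.24 (-0.09 to 0.57) and 0.21 (-0.25 to 0.66), and both intervals include equality. Lama4 was at 0.30 in fibroblasts and -0.92 in AT2 nuclei, 1.22 apart, with 48 and 32 UMIs in the AT2 gate. The AT2 side did not hold in the AT2 cluster, where Lama4 was at 0.02 (-1.17 to 1.25) on 12 and 15 UMIs, nor where gate and cluster agree, at 0.34 (-1.16 to 1.94). Lamb1 was at 0.26 in fibroblasts and -0.65 in AT2 nuclei, 0.91 apart. It was 0.28 (-0.09 to 0.67) and 0.30 (-0.21 to 0.81) within the fibroblast clusters and -0.44 (-0.93 to 0.05) in the AT2 cluster, and these intervals include equality. Beside these, the 30 stromal markers summed to 8621 and 8512 CPM in fibroblast-gated, 1026 and 596 CPM in AT2-gated and 553 and 368 CPM in ILC2-gated nuclei, and their part in the differences was not tested.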

How the results depend on the processing

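No paired analysis was possible because the PBS and OVA groups held a single library each. Of the 24 members with the same highest type in both libraries, the count was 12 of 15 where nuclei were limited to 20% mitochondrial UMIs, and it lay within 1.5 times of 24 under the other settings. The 2 pairs in favour of PBS became 0 with all gene UMIs as the denominator, 1 of 58 at 20% mitochondrial UMIs, 1 of 88 with the joint filter, 6 of 106 with doublets kept and 4 after centring on the median gene. The 3 pairs in favour of OVA became 1 after centring. With at least 100 UMIs, 1 of 58 pairs passed in each direction. The 12 members whose start and RNA led in 1 type became 3 of 19 with 3 markers and 6 of 25 with clusters. In clusters the log2 ratio of Itga8 in myofibroblasts was -1.54 and that of Lama2 in AT2 nuclei 0.70, both on the other side of equality than by gate. Lama2 in fibroblasts was -0.41 in clusters, and Itgav in ILC2s was 1.16 with all gene UMIs. Where nuclei on which gate and cluster agree were used, a setting chosen after seeing the data, 23 of 27 members had the same highest type and 2 of 82 pairs passed in each direction. The causes of these changes were not tested, and the stricter settings also leave fewer nuclei or UMIs. With 1 library a group, the intervals cover counting error only, and spread between mothers, fetuses or preparations is not in them.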
